A study of Mus musculus with 7 samples.

Results

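Microglia sorted from the ischemic brain were compared between old and young male mice for 10 immediate early response genes, namely Fos, Fosb, Jun, Junb, Jund, Egr1, Atf3, Ier2, Dusp1 and Zfp36. The genes were chosen by symbol and make up 10 of the 50686 genes quantified. All 10 passed the filter on low counts and were among the 17559 genes tested. The Young group held 4 libraries (14C, 18C, 23C and 29C) from C57BL/6 males of 3 to 4 months, and the Old group held 3 libraries (2posI, 3posI and 4posI) from C57BL/6 males of 21 to 22 months. All 7 mice were untreated and were studied 4 days after a middle cerebral artery occlusion of 45 minutes, and each library came from the cells of 1 animal. Forebrain tissue was digested with papain, with a warm step in a mechanical dissociator, and live cells were sorted on CD11b, CD45 and the lipid dye Bodipy, keeping the Bodipy+ microglia. The protocols name no inhibitor of transcription during digestion, and no library of undissociated tissue or of nonischemic brain was analysed here. The level of a message in the living brain and its induction during cell isolation therefore cannot be told apart.

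Immediate early genes are transcribed within minutes of a stimulus, from factors already present in the cell, through the MAP kinase, SRF and CREB pathways. Fos and Jun proteins pair through leucine zippers to form the transcription factor AP-1, while Dusp1 and Zfp36 belong to the feedback arm that inactivates MAP kinases and degrades inflammatory messages. The genes respond to injury and cytokines in microglia, and warm enzymatic dissociation of brain tissue is known to induce them as well.

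The stretches of promoter upstream of 4 of the genes, Fos, Fosb, Junb and Dusp1, are shown because the sequence TGACG, the core of the element bound by CREB and ATF proteins, occurs in each. Each runs 5′ to 3′ on the strand of its gene, from 200 to 51 bases before the RefSeq start (build GRCm38.p6). They are chr12:85473690-85473839 on the plus strand for Fos, and chr7:19310096-19310245, chr8:84978799-84978948 and chr17:26508523-26508672 on the minus strand for Fosb, Junb and Dusp1. Capitals mark TGACG on either strand.
Fos: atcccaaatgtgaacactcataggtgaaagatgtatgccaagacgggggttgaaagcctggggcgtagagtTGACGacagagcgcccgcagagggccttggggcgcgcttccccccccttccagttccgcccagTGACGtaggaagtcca
Fosb: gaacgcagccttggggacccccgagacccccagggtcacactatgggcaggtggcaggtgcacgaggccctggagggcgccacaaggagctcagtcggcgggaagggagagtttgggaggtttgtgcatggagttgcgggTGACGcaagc
Junb: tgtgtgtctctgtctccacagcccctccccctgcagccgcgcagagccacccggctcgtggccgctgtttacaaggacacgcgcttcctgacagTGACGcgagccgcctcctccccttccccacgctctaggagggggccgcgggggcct
Dusp1: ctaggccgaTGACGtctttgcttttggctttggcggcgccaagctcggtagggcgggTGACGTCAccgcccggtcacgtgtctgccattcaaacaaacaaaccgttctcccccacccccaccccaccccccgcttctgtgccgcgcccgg

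TGACG was found, on either strand of the 250 bases before the start, in 5 of the 8 members with a promoter in the RefSeq table, against 17.8% of 32851 promoters of that length. The first base of the match lay 129 and 66 bases before the start of Fos, 60 before that of Fosb and 106 before that of Junb. In Dusp1 the matches began 191, 143 and 140 bases before the start, the last on the opposite strand, and the pair at 143 and 140 overlapped as the full palindrome TGACGTCA, which 1.55% of promoters held. Atf3 had its match on the opposite strand, 7 bases before the start. The AP-1 sequence TGANTCA, which is its own reverse complement, was present in 6.75% of promoters and in 0 of the 8 members. A CArG box, the element bound by SRF, was present in 1.47% of promoters and in 1 of the 8 members, Zfp36, where it began 58 bases before the start. These matches describe the letters of the windows and not bound sites. Egr1 and Ier2 had no promoter in the RefSeq table and were not searched. For the other members nothing beyond 250 bases before the start was searched, so an absent match holds for that window only.

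The total expected count per library was 36574083 to 53002386. Expected counts of a member in a library ran from 3947 to 185223, so that the counting error of the reads was small beside the differences between libraries. Each animal gave 1 library, so noise from preparing a low-input library and differences between animals cannot be told apart. The defining markers of microglia were present throughout, at a summed 16084 to 26522 CPM (counts-per-million, scaled by TMM factors) in young mice, and at 20473 in 2posI, 8710 in 3posI and 19350 in 4posI. Library 3posI stood apart, since its 6 monocyte markers summed to 2415 CPM, against 36.1 to 206 in young mice and 174 and 129 in the other old mice, and its 6 markers of border-associated macrophages summed to 1373 CPM, against 115 to 405 in young mice, 469.9 in 2posI and 152 in 4posI. F13a1, with 499.8 CPM in 3posI, is in both lists, so these sums are not independent. All 6 monocyte markers were fitted higher in old mice, 4 at an unadjusted p under 0.05, and 2 of them, Ly6c2 and Plac8, were above every young library in all 3 old libraries. Ly6c2 had 0.946 to 2.86 CPM in young mice and 15.3, 162 and 9.59 CPM in 2posI, 3posI and 4posI, and Plac8 had 0.922 to 4.56 CPM in young mice and 6.91, 86.2 and 11.7 CPM in the old libraries. Of 6 endothelial markers, 6 were fitted lower in old mice, with a median of -0.78 on the log2 scale, 3 at an unadjusted p under 0.05 and 2 (Pecam1 and Ly6c1) without overlap, and their sum was 60.7 to 119 CPM in young and 47.6 to 61.7 CPM in old mice. Of 7 T and B cell markers tested, 6 were fitted higher, 3 at an unadjusted p under 0.05. These 3, Cd3e, Cd3g and Cd8a, had at most 0.562 CPM in any library. The sums were 22.6 to 25.006 CPM in young and 16.7 to 31.9 CPM in old mice. Their largest part was Cd79b, which was fitted lower, with 14.6 to 22.2 CPM in young and 8.61 to 21.2 CPM in old mice. By edgeR, 0 markers of these types had an adjusted p under 0.05, whereas DESeq2 called 2 monocyte, 2 endothelial and 0 T and B cell markers. DESeq2 called 9.07% of all genes for which it gave an adjusted p. At an unadjusted p under 0.05 in edgeR, 8.79% of all genes tested were lower and 10.1% higher. Library 2posI had the lowest total, 36574083, and the fewest genes with a count, 19846 against 21608 to 22717 in young mice. Neutrophil markers summed to 1.27 to 141 CPM in young and 39.5 to 99.997 CPM in old mice, and neuronal markers to 1.25 to 4.30 CPM over the 7 libraries. Astrocyte markers summed to 106 to 146 CPM in young mice, 184 in 2posI, 66.2 in 3posI and 92.2 in 4posI. Oligodendrocyte markers summed to 47.4 to 52.0 CPM in young mice, 69.5 in 2posI, 58.9 in 3posI and 44.6 in 4posI. DESeq2 called 1 oligodendrocyte marker and 0 astrocyte markers, and edgeR called 0 of either. In these bulk samples, fewer cells of a type and less RNA per cell cannot be told apart.

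The 10 genes were among the more abundant messages of these cells. Per length, in TPM (transcripts-per-million), Junb had the highest level in young mice, 2570 ± 652 (mean ± SD, n = 4), followed by Fos at 2041 ± 444. Zfp36 at 1384 ± 354 and Dusp1 at 1372 ± 255 TPM came next, ahead of Jun at 988 ± 323 and Ier2 at 824 ± 135 TPM. Egr1 (753 ± 229.5 TPM) and Atf3 (729 ± 144 TPM) preceded Jund (274 ± 71.3 TPM) and Fosb (213 ± 48.3 TPM). The ranges of neighbours in this order overlapped at every step but 1, since the lowest Atf3 value, 517 TPM, was above the highest Jund value, 373 TPM. In old mice Fos had 1512 ± 611 and Junb 1487 ± 644 TPM (n = 3), Jund 172 ± 104 and Fosb 86.7 ± 41.0 TPM, and the ranges of all neighbours overlapped. Junb ranked 31 to 52 among the 50686 genes in young mice and 49 to 129 in old mice. Fosb ranked 537 to 924 in young mice and 1155 to 2733 in old mice.

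Compared with young mice, the fitted level of each of the 10 genes was lower in old mice, by 0.36 to 1.24 on the log2 scale, but no gene passed the test. In edgeR's quasi-likelihood fit, 0 of the 10 had a Benjamini-Hochberg adjusted p under 0.05, against 0.803% of all genes tested (141 genes). At an unadjusted p under 0.05, 3 members (Fosb, Junb and Zfp36) were lower, where 8.79% of all genes were lower at that level and 10.1% higher. A fitted value below 0 was found for 10 of 10 members and for 51.2% of all genes. The members were measured in the same 7 libraries, so their values are not independent, and their shared direction was not tested. The median of the members was -0.59 on the log2 scale, beside -0.01 over all genes tested. DESeq2 called 1 of the 10, Fosb, against 9.07% of the genes for which it gave an adjusted p, and limma-voom called 0. In CPM, 1 of 10 members, again Fosb, had every old library below every young library, which was the case for 9.07% of all genes tested.

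**Figure D1:**
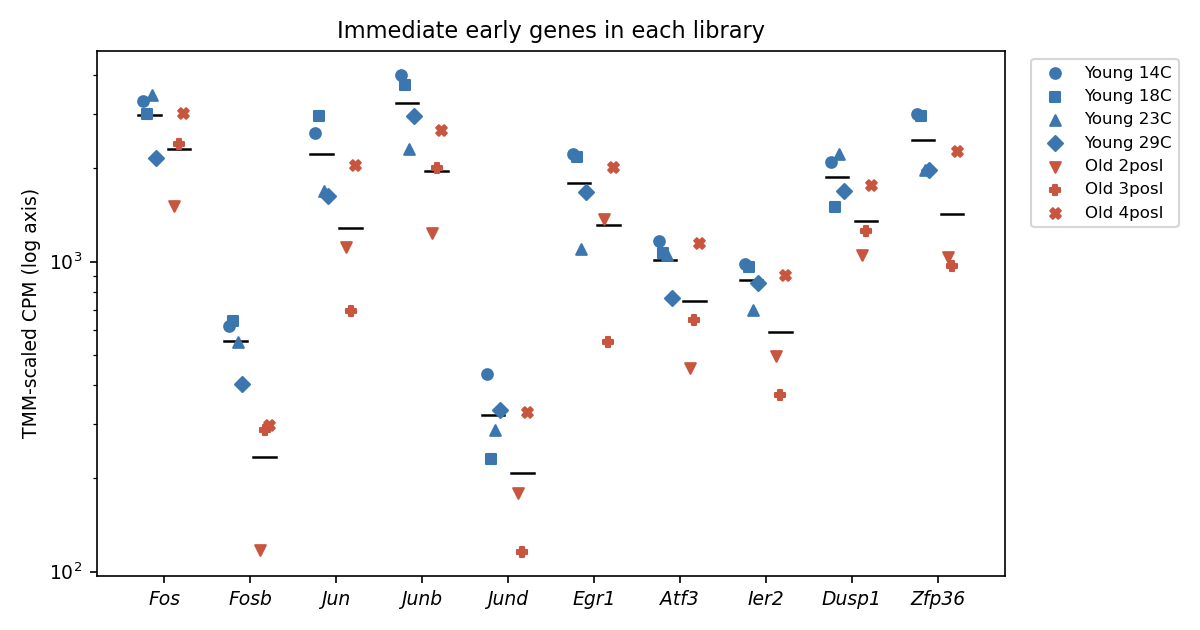
TMM-scaled CPM (log axis) of the 10 immediate early genes in each of the 7 libraries, with Young in blue, Old in red and a bar at each group mean. Fosb is the only gene whose old values (118 to 297) all lie below its young values (402 to 643), and 4posI lies within the young range for the other 9 genes.

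Fos (ENSMUSG00000021250, chr12:85473890-85477273, plus strand, GRCm38) encodes the AP-1 subunit that gives the family its name and cannot pair with itself. Its level was 3297, 2999, 3440 and 2163 CPM in the young libraries 14C, 18C, 23C and 29C, and 1512, 2403 and 3021 CPM in the old libraries 2posI, 3posI and 4posI. The groups overlapped, with 2posI below and the other two within the young range. The log2 fold change was -0.36 (SE 0.27, 95% interval -0.98 to 0.25, edgeR adjusted p = 0.493).

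Fosb (ENSMUSG00000003545, chr7:19302696-19310051, minus strand) encodes a second Fos protein, whose truncated form, deltaFosB, is known for its long life in neurons. Young libraries, in the same order, had 619.8, 643, 550.3 and 402 CPM, and old libraries had 118, 287 and 297 CPM. No old library reached the lowest young library, and 2posI was the lowest of the 7. The log2 fold change was -1.24 (SE 0.33, 95% interval -1.98 to -0.50), with an unadjusted p of 0.00448 and an adjusted p of 0.110 in edgeR. DESeq2 gave an adjusted p of 0.00433 for Fosb. Over the other settings, including each library left out, the edgeR or limma adjusted p for Fosb was between 0.0604 and 0.258.

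Jun (ENSMUSG00000052684, chr4:95049034-95052222, minus strand) encodes the AP-1 subunit with the strongest transactivation domain of the Jun proteins. Its levels were 2607, 2957, 1695 and 1624 CPM in young and 1111, 691 and 2042 CPM in old libraries. Libraries 2posI and 3posI were below every young library, while 4posI exceeded 23C and 29C. For Jun, edgeR gave a log2 fold change of -0.79 (SE 0.38, 95% interval -1.66 to 0.07, edgeR adjusted p = 0.303).

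Junb (ENSMUSG00000052837, chr8:84974484-84978718, minus strand) encodes a Jun protein that often restrains Jun. Young libraries had 4010, 3722, 2307 and 2940 CPM and old libraries 1240, 2008 and 2650 CPM. The groups overlapped through 4posI, which exceeded 23C. Its log2 fold change was -0.72 (SE 0.30, 95% interval -1.40 to -0.05), with an unadjusted p of 0.0392 and an adjusted p of 0.238 in edgeR.

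Jund (ENSMUSG00000071076, chr8:70698949-70700616, plus strand) encodes the Jun protein that is the least dependent on stimulation and is present in resting cells. It had the lowest level of the Jun genes in each library, at 433, 230.4, 286 and 331 CPM in young and 179.7, 116 and 328 CPM in old mice. Again 2posI and 3posI lay below the young range and 4posI within it. Jund had a log2 fold change of -0.62 (SE 0.35, 95% interval -1.42 to 0.17, edgeR adjusted p = 0.371).

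Egr1 (ENSMUSG00000038418, chr18:34859823-34864984, plus strand) encodes a zinc finger transcription factor induced through SRF. Young libraries had 2219, 2167, 1100 and 1680 CPM, and old libraries had 1373, 551 and 2020 CPM. It was the single member for which 2posI was within the young range, and only 3posI lay below that range. The log2 fold change was -0.45 (SE 0.42, 95% interval -1.40 to 0.50, edgeR adjusted p = 0.596), and it was -0.08 without 3posI.

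Atf3 (ENSMUSG00000026628, chr1:191170296-191218039, minus strand) encodes a stress-induced member of the ATF family that limits inflammatory transcription. Its levels were 1162, 1067, 1047 and 765 CPM in young and 453, 647 and 1145 CPM in old libraries. The old library 4posI was above 3 of the 4 young libraries, whereas the other old libraries were below all 4. Atf3 had a log2 fold change of -0.43 (SE 0.30, 95% interval -1.13 to 0.26, edgeR adjusted p = 0.472).

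Ier2 (ENSMUSG00000053560, chr8:84661331-84662852, minus strand) encodes a small nuclear protein of the immediate early response. Young libraries had 983, 962, 696 and 851 CPM and old libraries 497, 371 and 907 CPM. Libraries 2posI and 3posI lay below the young range and 4posI within it. The log2 fold change was -0.56 (SE 0.29, 95% interval -1.23 to 0.11, edgeR adjusted p = 0.341).

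Dusp1 (ENSMUSG00000024190, chr17:26505590-26562128, minus strand) encodes a nuclear phosphatase that inactivates p38 and JNK. Its levels were 2096, 1499, 2231 and 1691 CPM in young and 1048, 1251 and 1764 CPM in old libraries. The groups overlapped because 4posI exceeded 18C and 29C. This gave Dusp1 a log2 fold change of -0.47 (SE 0.23, 95% interval -0.998 to 0.05, edgeR adjusted p = 0.310).

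Zfp36 (ENSMUSG00000044786, chr7:28376784-28380253, minus strand) encodes tristetraprolin, which binds AU-rich elements and promotes the decay of cytokine messages. Young libraries had 2985, 2940, 1970 and 1980 CPM, and old libraries had 1031, 968 and 2277 CPM. The values of 2posI and 3posI were below every young value, and 4posI was above 23C and 29C. For Zfp36 the fitted log2 fold change was -0.79 (SE 0.34, 95% interval -1.56 to -0.02), with an unadjusted p of 0.045 and an adjusted p of 0.253 in edgeR.

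Low levels were found mainly in 2 of the 3 old libraries. Library 2posI was below every young library in 9 of 10 genes, all but Egr1, and 3posI in 9 of 10, all but Fos. Library 4posI was below every young library in 1 gene, Fosb, and within the young range in the other 9. Summed over the 10 genes, the members took 1.31, 1.25, 1.01 and 0.880% of all transcripts in the young libraries, in TPM. The same share was 0.476% in 2posI, 0.570% in 3posI and 1.08% in 4posI. The mean share was 1.11 ± 0.204% in young (n = 4) and 0.709 ± 0.326% in old mice (n = 3), and the groups overlapped.

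**Figure D2:**
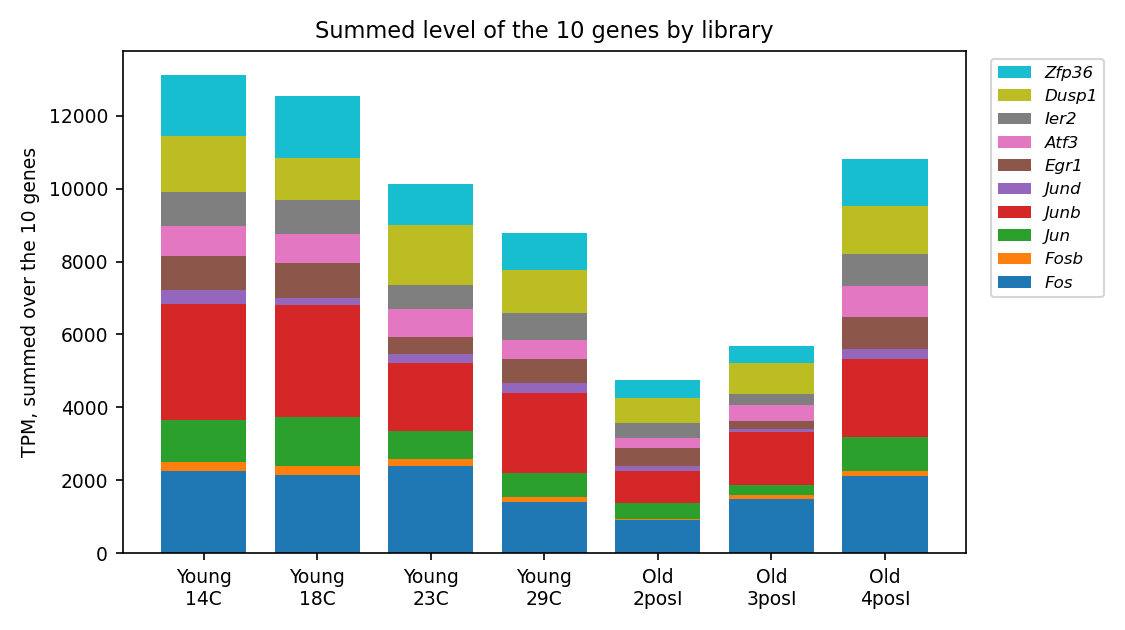
TPM of the 10 genes stacked by library. The summed level is 8797 to 13129 TPM in the 4 young libraries, 4762 in 2posI, 5698 in 3posI and 10823 in 4posI, the last within the young range.

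Leaving out 4posI moved the median of the members from -0.59 to -1.01 on the log2 scale, and the number of members with no overlap between ages from 1 to 8, where 16.1% of all genes tested then had every old library below every young library. Leaving out 23C moved that number to 2, beside 13.3% of all genes. Without 3posI, the library with the highest sum of monocyte markers, the median was -0.41, and without 2posI it was -0.48. All of the 10 genes stayed below 0 whichever of the 7 libraries was left out, from -1.46 (Fosb without 4posI) to -0.08 (Egr1 without 3posI), and edgeR called 0 of the 10 in each case. Fos moved to -0.13 and Atf3 to -0.17 without 2posI.

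**Figure D3:**
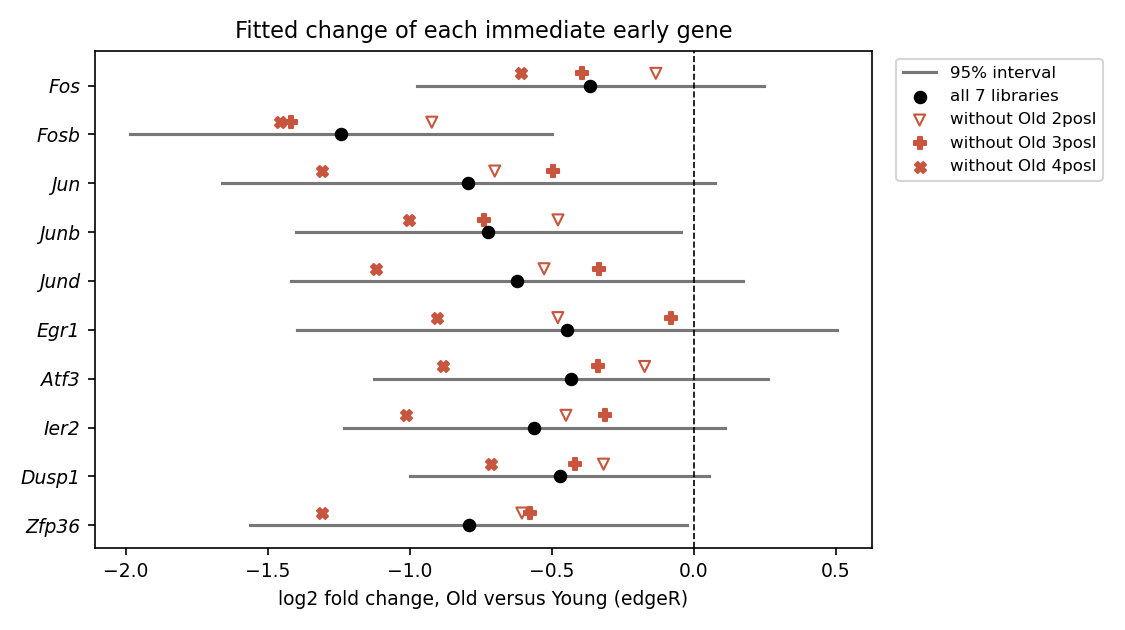
Fitted log2 fold change of each gene, Old versus Young (edgeR), with its 95% interval over all 7 libraries and, above each line, the value with 1 old library left out. Every fitted value lies below 0, but only the intervals of Fosb, Junb and Zfp36 lie wholly below 0. The values without 4posI are the lowest for each gene, -1.31 for Jun and Zfp36.

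The share of counts in genes annotated as ribosomal RNA also differed between the libraries. It was 4.24, 4.14, 3.62 and 3.52% in the young libraries 14C, 18C, 23C and 29C and 1.62, 2.43 and 2.84% in the old libraries 2posI, 3posI and 4posI. Within each age, the order of libraries by ribosomal RNA share was also their order by the summed level of the 10 genes in CPM, 20412, 19186, 15320 and 14428 in young and 8562, 9293 and 16452 in old mice. Across the ages the orders differed, since 4posI had a lower share but a higher sum than 23C and 29C. The total expected count rose in the same order in the old libraries but not in the young ones. The mitochondrial share was 2.12 to 2.56% in young libraries, 2.95% in 2posI, 1.59% in 3posI and 1.76% in 4posI. The part of ribosomal RNA share, library depth and the markers of monocytes, endothelial cells, T and B cells and the other cell types in the levels of the 10 genes was not tested.

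Within the AP-1 family, the level of Fosb was also set against that of Fos in the same library. Fosb made 10.5, 11.9, 9.09 and 10.4% of the TPM of Fos in the young libraries and 4.44, 6.78 and 5.55% in the old libraries. Every old library was below every young library, with means of 5.59 ± 1.17% (n = 3) and 10.5 ± 1.14% (n = 4). The 2-sided exact permutation p was 0.0286, the smallest that 3 against 4 libraries allow. The ratio was chosen after its values were seen. Of the 45 pairs of members, 3 had ratios with no overlap between ages, and all 3 held Fosb (with Fos, Atf3 and Dusp1). After Benjamini-Hochberg adjustment over the 45 pairs, the smallest exact permutation p was 0.429. Since no pair can go below 0.0286, an adjusted p under 0.05 would need most pairs at that floor. The pairs also share members, and the adjusted test therefore cannot decide about a single pair. On the log2 scale the ratio of Fosb to Fos was lower by a difference of -0.92. With 1 library left out, the difference was between -1.07 (without 3posI) and -0.76 (without 2posI).

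**Figure D4:**
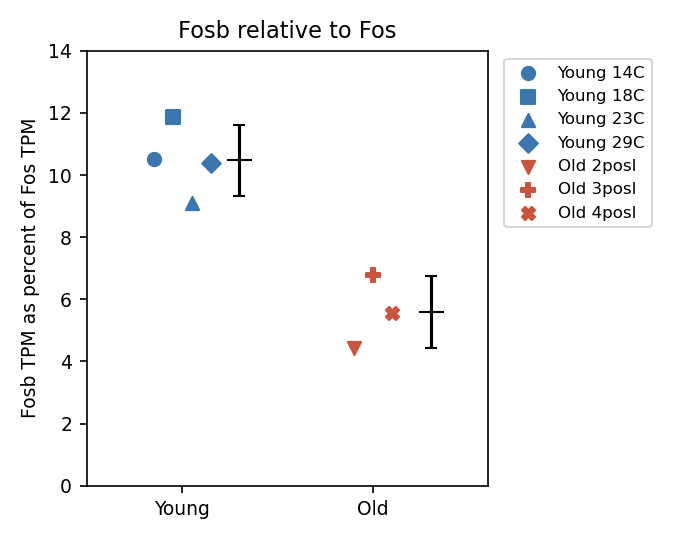
Fosb TPM as a percent of Fos TPM in each library, with the mean and SD of each age beside the points. The 4 young libraries lie between 9.09 and 11.9% and the 3 old libraries between 4.44 and 6.78%.

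Some counts of the members depend on how reads were assigned. The libraries were non-stranded, so that reads from a gene and from a gene on the opposite strand cannot be told apart where they overlap. Ergic1 overlaps Dusp1, with a count of up to 10.6% of that of Dusp1, and Prdx2 overlaps Junb, with up to 9.51%. The antisense genes Gm11175, at Jund, and Junos, at Jun, reached 1.79% and 0.349%. The expected counts were not whole (tolerance 0.001) in 6 libraries for Jun and Jund and in all 7 for Junb and Zfp36, as RSEM gives them where reads match several genes. Jun, Jund and Ier2 are annotated with a single exon.

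The wider immediate early response was read from lists of related genes, and in each of them 0 genes had an adjusted p under 0.05 in edgeR or limma-voom. DESeq2 called 2 of the other immediate early transcription factors, 4 of the inhibitors and effectors, 2 AP-1 partners, 1 upstream gene, 2 dissociation-responsive genes and 0 messages bound by Zfp36. Of all genes for which DESeq2 gave an adjusted p, 9.07% were called. In edgeR, 51.2% of all genes tested were fitted lower, and at an unadjusted p under 0.05, 8.79% were lower and 10.1% higher. Genes of a list were measured in the same libraries, so their values are not independent. Of 23 other immediate early transcription factors, 16 were fitted lower and 7 higher in old mice, with a median of -0.16 on the log2 scale, and 2 were lower at an unadjusted p under 0.05. The median was -0.08 without 2posI, -0.40 without 3posI and -0.31 without 4posI. Klf2, a shear-responsive Krüppel-like factor, had 419.6, 189, 346 and 222 CPM in young and 70.5, 64.0 and 161 CPM in old libraries, without overlap. Its log2 fold change was -1.58 (SE 0.40, edgeR adjusted p = 0.101). Hes1, a Notch target, had 27.8 ± 5.58 CPM in young and 14.0 ± 5.33 CPM in old mice (adjusted p = 0.132 in edgeR), and Egr4, of the Egr family, was below 2 CPM in every library (adjusted p = 0.266 in edgeR).

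Of 28 other immediate early inhibitors and effectors, 24 were fitted lower and 4 higher, with a median of -0.41, and 7 were lower at an unadjusted p under 0.05. The median was -0.26 without 2posI. Socs3, the feedback inhibitor of cytokine receptors, had 785, 737, 598 and 569 CPM in young and 171, 293 and 481 CPM in old libraries, without overlap. Its log2 fold change was -1.09 (SE 0.32, edgeR adjusted p = 0.133). Dusp2, a MAP kinase phosphatase related to Dusp1, had 85.8 ± 25.5 CPM in young and 36.6 ± 20.3 CPM in old mice (edgeR adjusted p = 0.164). Phlda1 had 33.6 ± 4.71 CPM in young and 15.7 ± 7.71 CPM in old mice (edgeR adjusted p = 0.126).

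Of 13 AP-1 dimer partners, 8 were fitted higher and 5 lower in old mice, with a median of 0.15, and 3 were higher and 1 lower at an unadjusted p under 0.05. That median was 0.05 without 3posI, 0.09 without 23C and 0.02 to 0.03 with limma on log2 TPM. Jdp2, a repressor that pairs with Jun proteins, had 0.650, 0.626, 1.57 and 0.903 CPM in young and 2.65, 5.14 and 2.18 CPM in old libraries (log2 fold change 1.82, SE 0.45, edgeR adjusted p = 0.0964). Atf2, a stress kinase target, had 37.4 ± 1.29 CPM in young and 29.4 ± 2.14 CPM in old mice (edgeR adjusted p = 0.151), and Atf7 had 29.9 ± 6.20 CPM in young and 40.9 ± 5.91 CPM in old mice (edgeR adjusted p = 0.235). Of 21 kinases and factors upstream, 12 were fitted higher and 9 lower, with a median of 0.16, which was -0.04 with limma on log2 TPM, 0.05 with the effective-length offset, 0.08 without 2posI and 0.09 without 3posI. At an unadjusted p under 0.05, 6 were higher and 2 lower. Mapkapk2, the kinase downstream of p38 that phosphorylates tristetraprolin, had 60.8, 48.3, 51.0 and 59.6 CPM in young and 82.5, 104 and 87.3 CPM in old libraries, without overlap. Its log2 fold change was 0.73 (SE 0.13, edgeR adjusted p = 0.0524). Srf had 7.36 ± 0.486 CPM in young and 10.8 ± 2.35 CPM in old mice (edgeR adjusted p = 0.168), and Crtc2, a coactivator of CREB, had 31.7 ± 5.93 and 22.7 ± 1.10 CPM (edgeR adjusted p = 0.176).

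Of 15 other genes known to respond to dissociation in microglia, 15 were fitted lower in old mice, with a median of -0.44, and 3 were lower at an unadjusted p under 0.05. Nfkbid, a nuclear inhibitor of the NF-kappaB family, had 296, 326, 283 and 263 CPM in young and 134, 124 and 217 CPM in old libraries, without overlap (log2 fold change -0.89, SE 0.21, edgeR adjusted p = 0.0869). Hspa1a, an inducible heat shock protein, had 123 ± 42.5 CPM in young and 61.3 ± 19.4 CPM in old mice (edgeR adjusted p = 0.153). Hist1h1c, a linker histone, had 122 ± 21.3 and 77.5 ± 24.4 CPM (edgeR adjusted p = 0.169). The summed level of the 15 genes was 5233 to 7167 CPM in young libraries, 3890 in 2posI, 3429 in 3posI and 7266 in 4posI. Libraries 2posI and 3posI were thus below the young range, as for the sum of the 10 genes, and 4posI was just above it. The list's median was -0.87 without 4posI and -0.21 without 3posI, and Nfkbid passed the edgeR threshold without 4posI (-1.19).

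Of 12 messages known to be bound by Zfp36, 11 were tested, and Csf2 had a count of 0 in all 7 libraries. Of these, Tnf, Il1b, Ccl3 and Cxcl2 were also in the list of dissociation-responsive genes, and Ier3 in that of inhibitors and effectors. In old mice 7 of the 11 were fitted lower and 4 higher, and 1 was higher at an unadjusted p under 0.05. The list's median of -0.44 was the value of Tnf, which was also the median of the dissociation-responsive list. The median was -0.10 without 2posI and -0.74 with limma on log2 TPM. The message that was higher, Vegfa, had 1.73, 0.604, 1.59 and 0.796 CPM in young and 2.77, 35.4 and 3.65 CPM in old libraries, the highest in 3posI (log2 fold change 3.56, SE 0.89, edgeR adjusted p = 0.0973). Without 3posI, the log2 fold change of Vegfa was 1.44. Ptgs2, which encodes cyclooxygenase-2, had 122 ± 17.8 CPM in young and 68.9 ± 41.5 CPM in old mice (edgeR adjusted p = 0.342). Cxcl2 had 101 ± 22.5 and 52.3 ± 36.0 CPM (edgeR adjusted p = 0.360).

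**Figure D5:**
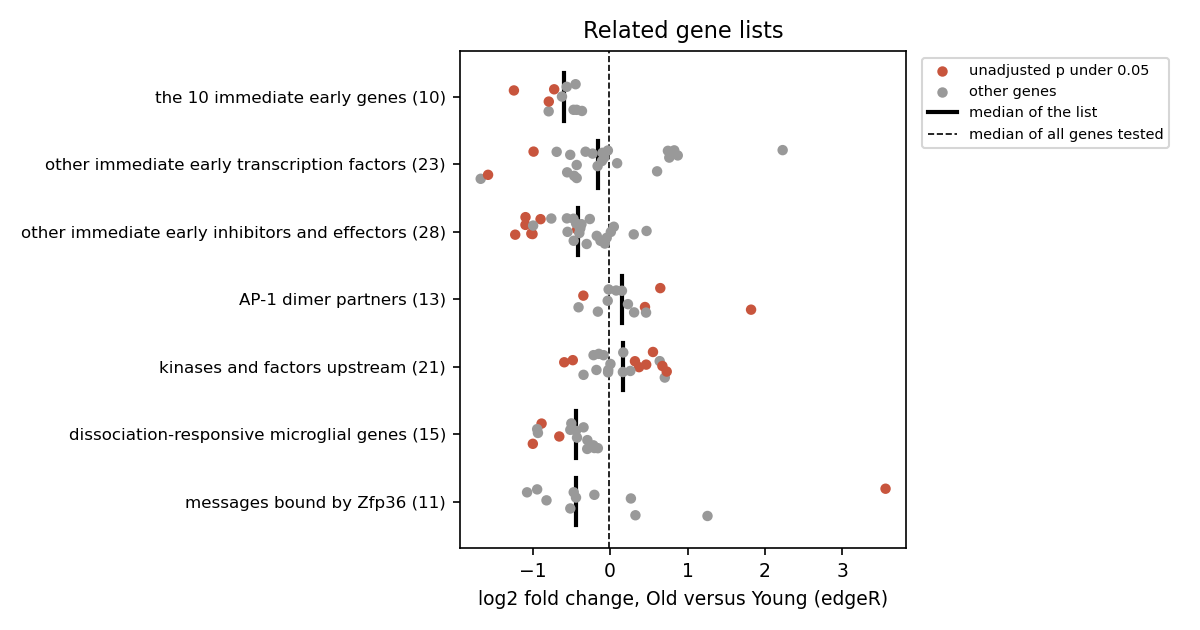
Fitted log2 fold changes, Old versus Young (edgeR), of the 10 immediate early genes and 6 related lists, with the number tested in parentheses, list medians as black bars and the median of all genes tested (-0.01) as a dashed line. Genes with an unadjusted p under 0.05 are red, and some genes are in more than 1 list. The medians run from -0.59 for the 10 genes to 0.16 for the upstream kinases and factors.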

How the data were processed

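RNA of Bodipy+ microglia from 4 young and 3 old male mice was sequenced from low-input, non-stranded libraries. Per the labels and the methods, the authors checked reads with FastQC 0.11.5, used skewer for trimming, aligned to GRCm38 by STAR and quantified GENCODE m15 genes with RSEM. For STAR and RSEM the version is not given in the sources used here. Deposited expected counts are not normalized, the deposited TPM values are scaled by transcript length and to one total in every library, and the deposited FPKM values were not used. The deposited effective lengths served as an offset in 1 alternative.

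Expected counts were rounded. Autosomal genes were tested if any library had an expected count above 10, 17559 of 18173 over the count filter (614 lay on X, Y or M). In R 4.3.3, edgeR 4.0.16 gave TMM factors, quasi-likelihood tests with age as the only term and Benjamini-Hochberg adjusted p over all genes tested, with a threshold of 0.05. Exact permutation tests used 3 against 4 libraries. Within an age nothing but the animal code separates libraries, and p-values set the difference between ages against the spread between libraries. The codes end in C in young and in posI in old mice, so any difference in handling behind them cannot be told apart from age. Alternatives were limma-voom (limma 3.58.1), DESeq2 1.42.0, RLE and upper-quartile factors, other filters, X, Y and M kept, the effective-length offset, log2(TPM + 1) and log2(TPM + 0.1) with limma, and each library left out.

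Members and lists were chosen with earlier results of these data known. Of each related list, the 3 genes with the smallest unadjusted p were named. Coordinates came from GENCODE vM21, in which 224 of the 50686 identifiers were not found. A symbol with several identifiers (Map2k7) was left out of its list.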

Additional observations from a re-analysis of the deposited data

Results flagged for a closer look

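In groups of 4 libraries, the gap between the most extreme library and its nearest neighbour was set against the group's whole range, with Dixon's 95% critical value. Of 46 results tested, 3 were past it, where chance gives about 2.3. None of the 10 immediate early genes was among them.

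Phlda1 in young mice had a ratio of 0.868, since 18C had 40.7 CPM and the other young libraries 30.4 to 31.8. The summed CPM of the kinases and factors upstream in young mice had a ratio of 0.910, since 23C had 1129 and the other young libraries 1244 to 1255. The summed CPM of neutrophil markers in young mice had a ratio of 0.858, since 29C had 141 and the other young libraries 1.27 to 21.1.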

How the results depend on the processing

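All of the 170 values of the 10 members over 17 other settings were below 0, and 1 of them passed the threshold, Fosb with DESeq2 (-1.24 on the log2 scale). The settings refit the same libraries, so these values are not independent. The number of genes called, 141 with edgeR, was 1399 with DESeq2, 288 with no filter on low counts, 64 with log2(TPM + 1) and 71 with log2(TPM + 0.1), and the members called went from 0 to 1 with DESeq2. With 1 library left out, 1 to 157 genes were called (1 without 14C, 18C or 2posI, 2 without 29C, 13 without 23C and 82 without 4posI), and 0 members. The members' median ran from -1.01 (without 4posI) to -0.41 (without 3posI), and the number of members with no overlap between ages from 1 to 8 (without 4posI, where 16.1% of all genes had every old library below every young library, against 9.07% with all 7). The share of calls that were lower in old mice was 29.1% with edgeR, 46.8% with DESeq2, 45.5% with no filter, 41.8% with the effective-length offset, 50% and 52.1% with TPM and 50% without 4posI. With log2(TPM + 0.1) the median of all genes was -0.13 instead of -0.01, and the members lay -0.65 from it, against -0.58 with edgeR. The cause of these moves was not tested. Of the 18 other named genes, 0 reversed, and 16 of their values passed the threshold in another setting, most with DESeq2. The ratio of Fosb to Fos, and its alternatives, were chosen after seeing the data, and it was -0.94 in CPM. No paired analysis was possible because the labels of the ages share no replicate number. Precision is limited by the 3 old libraries.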
